A study of Kryptolebias marmoratus with 5 samples.

Results

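A set of 40 genes was lower in embryos of both tail mutants of the mangrove killifish *Kryptolebias marmoratus*, *shorttail* (*stl*) and *balltail* (*btl*), than in all 3 pools of phenotypically normal embryos. Membership was set by the measured values themselves. Reads were summed per gene and scaled to the library total (CPM), a mean of 5 CPM or more over the 5 libraries was required, and CPM + 0.5 in *stl* and in *btl* had each to be at most 0.67 times that in each of *stl*-sibling, *btl*-sibling and WT. Of 22090 genes, 12962 met the minimum and 62 of these met the ratios (0.478%). With the same scaling, 2 (0.0154%) were higher in both mutants by the inverse factor. From the 62, 22 were left out by symbol, among them collagens, troponins, myosin light chains, myosin-binding proteins, an actin, *epyc*, *emilin3a* and *loxl5b*, which leaves the 40. Since the rule used all 6 comparisons of a mutant with a normal library, the lower level in the mutants is a description here and is not tested.

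*stl* and *btl* are ENU-induced recessive lines of this self-fertilizing fish, with lesions that the study assigned to *noto* in *stl* and *msgn1* in *btl*. Each of the 5 groups was 1 pool of whole embryos. The *stl* and *btl* pools held homozygous mutants, the *stl*-sibling and *btl*-sibling pools held normal-looking embryos of the same 2 lines, and WT was the parental *Hon9* strain. The study's variant screen required reads of both alleles in the siblings, so the sibling pools included carriers of the recessive allele. By the labels all 5 pools were collected at stage 17, possibly with embryos of stages 16 and 18, and held 20 to 25 embryos, whereas the study's text also names a later somite stage. With a single library per group, the spread between pools of 1 genotype is unknown. The estimated reads summed to between 9147625 in *btl* and 12220249 in *btl*-sibling. Brackets hold exact 95% limits (Clopper-Pearson) for the ratio between a pair of libraries, which allow for counting error alone and say nothing of the spread between pools. In pools of whole embryos, fewer cells of a type and less RNA per cell cannot be told apart.

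The vertebrate tail grows from the tail bud, whose cells give rise to the notochord along the midline and to the somites on either side. *noto* encodes a homeodomain factor of the notochord lineage, and *msgn1* encodes a bHLH factor of the presomitic mesoderm. The notochord is a rod of vacuolated cells within a sheath of extracellular matrix, and the somites form mainly skeletal muscle, in which myosin pulls on actin filaments when calcium is released from the sarcoplasmic reticulum. Genes of either tissue are therefore read in the same pool of RNA.

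Across the 40 genes, the level in *stl* lay between 2.06% and 60.5% of the mean CPM of the 3 normal libraries, with a median of 41.9%. In *btl* the range was 8.66% to 57.6%, with a median of 35.7%. A level below 25% was reached by 10 genes in *stl* and by 10 in *btl*. No share of all measured genes is given for this limit, so these counts are a description only. On the log2 scale of CPM + 0.5 the medians were -1.17 in *stl* and -1.39 in *btl*, beside medians of 0.01 and -0.17 over all 12962 measured genes. The lower median of all genes in *btl* depends on the scaling and was -0.01 with TMM factors and -0.45 with Salmon's TPM. All 6 counting intervals lay below 1 for 40 of the 40 genes, a direction that the choice of the genes fixes. Their mean level in the normal libraries ran from 6.40 to 298.6 CPM with a median of 14.99 CPM, and no library held fewer than 6 reads of any of them. Genes at most 0.67 times each normal library numbered 99 in *stl* (0.764% of measured genes) and 953 in *btl* (7.35%), and the 62 genes that met both conditions were 62.6% of the first set and 6.51% of the second. These comparisons share their 3 normal libraries.

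**Figure D1:**
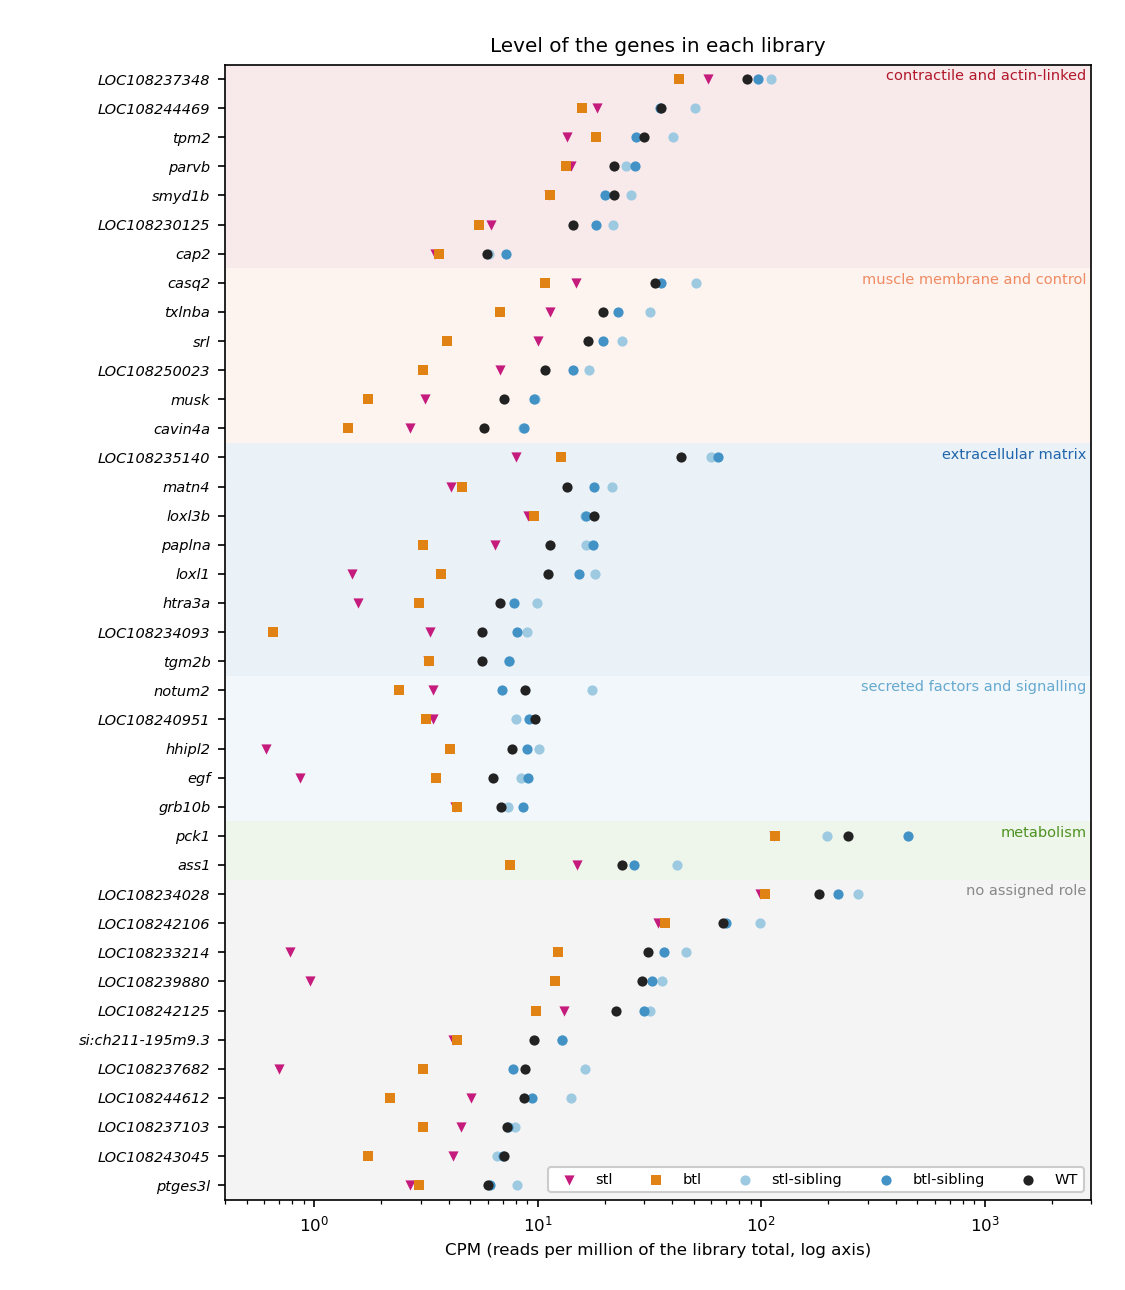
CPM of each of 39 of the genes (log axis) in *stl* (triangles), *btl* (squares), *stl*-sibling, *btl*-sibling and WT (circles), grouped by role and ordered by level; each point is 1 library. The mutant points lie left of all 3 normal points in each row, as the choice of the genes requires, whereas the order of *stl* and *btl* differs between rows.

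The genes were grouped by the known function of their products, a grouping made after their values were seen. There were 7 genes of the contractile apparatus and actin-linked proteins, 6 of muscle membranes and muscle control, 8 of the extracellular matrix, 6 secreted or signalling proteins and 2 metabolic enzymes. The other 11 have no role assigned here. Of the 40, 16 carry only a LOC symbol.

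Tropomyosins, coiled proteins that lie along actin filaments and gate the access of myosin, were represented by 3 genes. *tpm2* (annotated as the beta chain) had 13.5 CPM in *stl* and 18.3 in *btl*, against 40.4 in *stl*-sibling, 27.6 in *btl*-sibling and 30.0 in WT. *LOC108244469* (annotated as tropomyosin alpha-3) had 18.4 CPM in *stl* and 15.9 in *btl*, against 50.7, 35.4 and 35.6 in the same order of normal libraries. *LOC108237348* (annotated as tropomyosin alpha-1) was the most abundant, with 57.7 CPM in *stl* and 43.1 in *btl*, against 111.2, 96.6 and 86.7. The remaining tropomyosins that were measured did not share this pattern in full. *tpm1* had 49.3 CPM in *stl* and 32.0 in *btl*, against 93.3 in *stl*-sibling, 56.2 in *btl*-sibling and 62.4 in WT, so that *stl* was 0.790 times WT. The broadly expressed *tpm4a* and *tpm4b* were within 0.883 and 1.19 times each mutant's own sibling and WT. Tropomyosins are similar in sequence, so reads could have been divided among them and their single values are uncertain.

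Within *LOC108237348*, Salmon divided the reads among 7 coding sequences. Of a pair of 855-nucleotide coding sequences, one was at 0 in every library and the other had 23.25 CPM in *stl* and 15.4 in *btl*, against 82.1, 67.7 and 59.8 in *stl*-sibling, *btl*-sibling and WT. The more abundant of the 747-nucleotide coding sequences had 29.45 CPM in *stl* and 11.97 in *btl*, against 26.43, 27.63 and 26.45, and the other one was given 9.815 CPM in *btl* and 0 elsewhere. Thus, in *stl* the lower level of this gene lay in that 855-nucleotide form, as far as the division of reads between overlapping forms can be relied on.

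Sarcomeres are anchored and assembled with the help of further proteins in the set. *LOC108230125*, annotated as PDZ and LIM domain protein 3, whose mammalian counterpart binds alpha-actinin at the Z-disc, had 6.18 CPM in *stl* and 5.47 in *btl*, against 21.9 in *stl*-sibling, 18.3 in *btl*-sibling and 14.4 in WT. Of the other measured genes of that family, *pdlim1*, *pdlim2*, *pdlim4*, *pdlim5b* and *pdlim7* lay between 0.745 times and 1.42 times each mutant's own sibling. *smyd1b*, a methyltransferase needed for myosin assembly in zebrafish muscle, had 11.2 CPM in *stl* and 11.4 in *btl*, against 26.3, 20.0 and 21.9. The focal adhesion protein gene *parvb* was at 57.3% of the mean of the normal libraries in *stl* and 54.3% in *btl*, and *cap2*, which encodes an actin-binding protein, at 54.4% and 56.4%. Their broadly used relatives *parvaa* and *cap1* stood at 0.825 and 0.971 times the sibling in *stl*, and at 0.985 and 0.849 times the sibling in *btl*. As a group the 7 genes lay between 34.0% and 58.8% in *stl* and between 30.0% and 56.4% in *btl*.

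The genes of calcium storage and the muscle surface in the set were at lower levels in *btl* than in *stl*, as were 63.1% of all measured genes. Calsequestrin-2 (*casq2*) binds calcium inside the sarcoplasmic reticulum, and its level was 14.9 CPM in *stl* and 10.8 in *btl*, against 51.4 in *stl*-sibling, 35.8 in *btl*-sibling and 33.4 in WT. Sarcalumenin (*srl*), another calcium-binding protein of that compartment, had 10.01 CPM in *stl* and 3.94 in *btl*, against 23.9, 19.6 and 16.8. The value for *srl* in *btl* was 0.393 times that in *stl* (0.263 to 0.576), outside counting error. *cavin4a*, a coat protein of muscle caveolae, had 2.699 CPM in *stl* and 1.42 in *btl*, against 8.61, 8.71 and 5.75. Its relative *cavin4b* had 11.4 CPM in *stl* and 16.1 in *btl*, against 17.0, 16.1 and 18.3, so that *btl* was 0.997 times its sibling.

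*musk*, the receptor kinase that gathers acetylcholine receptors under the motor nerve ending, had 36 reads in *stl* and 16 in *btl*, against 116, 118 and 84 in *stl*-sibling, *btl*-sibling and WT. Scaled, it was 0.320 times the sibling in *stl* (0.214 to 0.469) and 0.181 times in *btl* (0.1003 to 0.307). The acetylcholine receptor alpha subunit *chrna1* was 0.501 times the sibling in *stl* and 0.229 times in *btl*, and 0.687 times WT in *stl*, which kept it outside the set. Of the other measured subunits, *chrnd* was 0.565 times the sibling in *stl* and 0.495 times in *btl*. *chrng* went the other way, at 0.364 times in *stl* and 0.495 times in *btl*. *lrp4*, the co-receptor of *musk*, was 1.07 times the sibling in *stl* and 0.749 times in *btl*. *LOC108250023*, annotated as a homolog of myoblast determination protein 1 (MyoD), a bHLH factor that commits cells to muscle, had 6.798 CPM in *stl* and 3.06 in *btl*, against 17.1, 14.5 and 10.8. The related factor *myf5* was 0.699 times the sibling in *stl* and 0.175 times in *btl*. *txlnba*, a taxilin, had 11.4 CPM in *stl* and 6.78 in *btl*, against 31.9, 22.8 and 19.7, and the related *txlnbb* had 5.05 and 3.28, against 10.97, 6.79 and 7.02. The taxilins *txlna* and *txlng* were 1.09 and 1.03 times the sibling in *stl* and 0.832 and 0.896 times in *btl*.

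Proteins of the extracellular matrix contributed 8 genes. Lysyl oxidases crosslink collagen and elastin fibres outside the cell. *loxl1* had 1.48 CPM in *stl* and 3.72 in *btl*, against 18.0 in *stl*-sibling, 15.3 in *btl*-sibling and 11.1 in WT, or 0.0823 times the sibling in *stl* (0.0471 to 0.135) and 0.243 times in *btl* (0.163 to 0.352). *loxl3b* differed less, with 9.05 CPM in *stl* and 9.62 in *btl*, against 16.4, 16.5 and 17.9. Their relative *loxl2a* was 0.884 times the sibling in *stl* and 0.487 times in *btl*. EMILINs are glycoproteins of elastic fibres, and *LOC108235140*, annotated as EMILIN-3, had 92 reads in *stl* and 116 in *btl*, against 709, 782 and 516, that is 0.134 times the sibling in *stl* (0.107 to 0.167) and 0.198 times in *btl* (0.162 to 0.241). The other EMILIN-3 gene, *emilin3a*, is among those left out by symbol. *emilin2a* was 0.957 times the sibling in *stl* and 0.887 times in *btl*, and *emilin1a* was 1.03 and 0.344 times.

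*matn4* encodes matrilin-4, an adaptor between matrix filaments, and had 4.09 CPM in *stl* and 4.59 in *btl*, against 21.6, 17.9 and 13.6 in *stl*-sibling, *btl*-sibling and WT. Each of the other measured matrilins was low in 1 mutant only by the 0.67 rule. *matn3a* was 0.122 times the sibling in *stl* and 0.574 times in *btl*, with 11.8 CPM in *btl* against 20.6 in *btl*-sibling, 13.6 in *stl*-sibling and 18.8 in WT. *LOC108234230*, annotated as matrilin-2, was 0.757 times the sibling in *stl* and 0.0500 times in *btl*. *LOC108234093*, annotated as a collagen alpha-1(XIX) chain but not left out because of its LOC symbol, had the lowest share of the normal level in *btl*, with 3.31 CPM in *stl* and 0.656 in *btl*, against 8.95, 8.10 and 5.67. The gene lies on linkage group 22 of ASM164957v2, from 23027971 to 23144282. The next gene, with 1300 bases between them, is *col9a1b*, one of the 22 genes left out.

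The secreted protease *htra3a* had 1.57 CPM in *stl* and 2.95 in *btl*, against 9.96, 7.81 and 6.77. *paplna*, which encodes the matrix glycoprotein papilin, was at 42.4% of the mean of the normal libraries in *stl* and 20.2% in *btl*. *tgm2b*, a transglutaminase that crosslinks proteins, was at 47.0% and 47.9%.

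**Figure D2:**
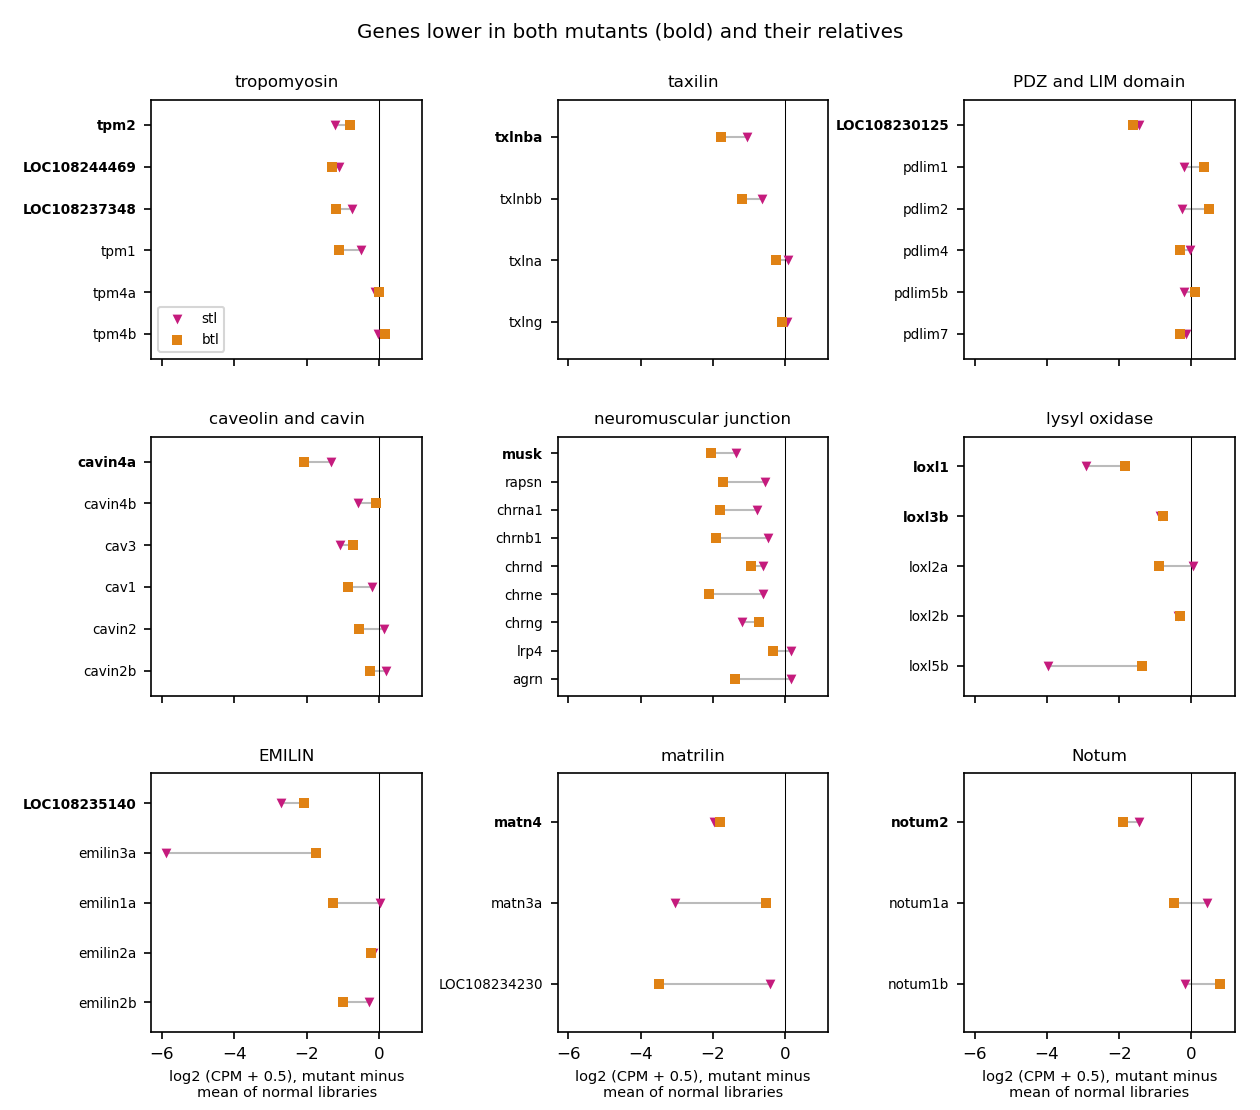
Log2 of CPM + 0.5 in *stl* (triangles) and *btl* (squares) minus the mean of the 3 normal libraries, for genes of the set (bold) and relatives by symbol or product name, 1 value per library. The relatives *tpm4a*, *tpm4b*, *txlna*, *txlng*, the other *pdlim* genes and *emilin2a* lie between -0.32 (*pdlim7* in *btl*) and 0.50 (*pdlim2* in *btl*). By contrast, *emilin3a* and *matn3a* lie far lower in *stl* and *LOC108234230* far lower in *btl*.

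Secreted and signalling proteins included some of the genes with the largest difference in *stl*. *hhipl2*, named for its similarity to the hedgehog-interacting protein, had 7 reads in *stl* and 37 in *btl*, against 120, 110 and 91 in *stl*-sibling, *btl*-sibling and WT. *egf*, the epidermal growth factor precursor, had 10 reads in *stl* and 32 in *btl*, against 100, 111 and 75. Both genes were lower in *stl*, at 0.0602 and 0.103 times the sibling, than in *btl*, at 0.449 and 0.385 times.

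*notum2* belongs to the Notum carboxylesterases, of which the founding member removes the lipid from Wnt ligands. It had 3.40 CPM in *stl* and 2.41 in *btl*, against 17.5 in *stl*-sibling, 6.96 in *btl*-sibling and 8.80 in WT. The *stl*-sibling library was nearly 2 times the WT library for this gene, so that *stl* was 0.194 times its sibling but 0.386 times WT. The paralogues *notum1a* and *notum1b* were 1.35 and 0.795 times the sibling in *stl* and 0.559 and 1.60 times in *btl*. *LOC108240951*, annotated as the membrane peptidase neprilysin, was at 37.8% of the mean of the normal libraries in *stl* and 35.3% in *btl*. *grb10b*, an adaptor of growth factor receptors, was at 56.2% and 57.6% and lay just inside the threshold.

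The metabolic genes encode enzymes of gluconeogenesis and of arginine synthesis. *pck1*, the cytosolic phosphoenolpyruvate carboxykinase of gluconeogenesis, had the highest CPM of the set, with 114.5 in *stl* and 114.9 in *btl*, against 197.1 in *stl*-sibling, 452.7 in *btl*-sibling and 246.0 in WT. The *btl*-sibling library stood above the other normal libraries, at 1.84 times WT. *stl* was 0.581 times its sibling (0.542 to 0.622), *btl* was 0.254 times its sibling (0.237 to 0.271), and both were 0.47 times WT. The mitochondrial paralogue *pck2* was 0.909 times the sibling in *stl* and 1.19 times in *btl*. *ass1*, argininosuccinate synthase, which joins citrulline to aspartate on the way to arginine, had 15.1 CPM in *stl* and 7.56 in *btl*, against 41.9, 27.1 and 23.95. *asl*, the gene of the following step, was 0.948 and 1.13 times the sibling.

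The 11 genes without an assigned role included those lowest in *stl* and some of the most abundant. *LOC108233214* is annotated as an uncharacterized protein and spans 10232363 to 10236353 of linkage group 18. It had 9 reads in *stl* and 113 in *btl*, against 549, 450 and 367 in *stl*-sibling, *btl*-sibling and WT. *LOC108239880*, which spans 18217131 to 18222891 of linkage group 4, had 0.958 CPM in *stl* and 11.92 in *btl*, against 36.00, 32.51 and 29.45. For this pair the *stl* level was 0.0169 and 0.0266 times that of the sibling, whereas the *btl* level was 0.335 and 0.367 times, and these were the lowest of the 40 in *stl*. *LOC108237682*, annotated as a fibroin heavy chain, followed with 8 reads in *stl* and 28 in *btl*, against 194, 95 and 104. At the other end, *LOC108234028* and *LOC108242106* had 174.2 and 154.6 TPM on average in the normal libraries, the scale that corrects for coding length and allows levels of different genes to be compared. *LOC108234028* had 98.6 CPM in *stl* and 103.8 in *btl*, against 270.4, 220.6 and 182.5, and *LOC108242106* had 34.7 and 37.3, against 98.5, 69.4 and 67.8. *si:ch211-195m9.3*, annotated as galaxin, was at 35.5% of the mean of the normal libraries in *stl* and 37.1% in *btl*, and *ptges3l*, named for its similarity to a prostaglandin E synthase, at 39.98% and 43.7%. The other 4, *LOC108242125*, *LOC108244612*, *LOC108237103* and *LOC108243045*, were between 46.9% and 60.5% in *stl* and between 20.4% and 40.7% in *btl*.

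The rule required both mutants to be low but did not state which was lower. The *stl* and *btl* values were nevertheless those that chose the genes, and the condition was met by fewer genes in *stl*, so the order of the mutants in the set is a description, shaped by the rule. *stl* was the lower in 21 of the 40 genes and *btl* in 19, beside 36.9% and 63.1% of all measured genes. The median log2 ratio of *stl* over *btl* was -0.01 over the 40 genes and 0.19 over all measured genes. With TMM factors 16 of the 40 were lower in *btl* (median -0.18), whereas with TPM 30 of the 40 were, and the median was then 0.26 beside 0.47 over all measured genes. At a ratio of 0.67 or less, 9 genes were lower in *stl* than in *btl* (11% of measured genes were) and 10 were lower in *btl* than in *stl* (20.3%). The counting interval of the ratio lay below 1 for 10 genes, above 1 for 11, and included 1 for 19. Set against the median ratio of all measured genes, 1.137, it lay below for 13 genes and above for 9. No share of all measured genes is given here for these interval counts, so they are a description only. Among the largest differences was that of *LOC108233214*, with *btl* at 15.8 times *stl* (8.02 to 35.4), with *LOC108239880* at 12.4 times (6.69 to 25.7), *hhipl2* at 6.64 times (2.92 to 17.6) and *LOC108237682* at 4.40 times (1.95 to 11.2). In the other direction, *LOC108234093* in *btl* was 0.198 times *stl* (0.0685 to 0.473), *srl* 0.393 times, *LOC108243045* 0.418 times (0.222 to 0.750), *LOC108244612* 0.433 times (0.247 to 0.731) and *LOC108250023*, the MyoD homolog, 0.450 times (0.282 to 0.702).

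By group, the order of the mutants is given as a description, since the groups were formed after the values were seen and could have been drawn otherwise. *smyd1b*, for instance, shares a marker list with *musk* but stands among the contractile genes. All 6 genes of muscle membranes and control (*casq2*, *srl*, *cavin4a*, *musk*, *LOC108250023* and *txlnba*) were lower in *btl*, with a median log2 ratio of *stl* over *btl* of 0.72. They were lower in *btl* in 6 of 6 cases also with TMM factors (median 0.57), with TPM (0.93) and with the trend over coding length removed (0.57). Over all measured genes the median was 0.19, with TMM factors 0.01, with TPM 0.47 and with the trend removed 0.004. The counting interval excluded 1 for 4 of the 6, whereas those of *musk* and *cavin4a*, the genes with fewest reads, included it. That of *casq2* (1.07 to 1.78) excluded 1 but held the median ratio of all measured genes, 1.137. The contractile and actin-linked genes had a median of 0.07, and with TMM factors of -0.10, so no order of the mutants can be given for them. Among the matrix genes *stl* was the lower in 6 of 8, with a median of -0.12, which was 0.16 with TPM. The intervals of *matn4*, *loxl3b* and *tgm2b* included 1, and that of *htra3a* reached 0.9999. Those of *loxl1* and *LOC108235140* lay below 1, and those of *LOC108234093* and *paplna* above. The median share of the mean normal level in this group was 32.75% in *stl* and 25.52% in *btl*, the other order. For the secreted and signalling genes *stl* was the lower in 4 of 6, with a median of -0.79 (TMM -0.94, TPM -0.34). With TPM, 3 of the 8 matrix genes and 3 of the 6 secreted genes were lower in *stl*. With 1 library per mutant, the difference between the groups of genes was not tested.

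**Figure D3:**
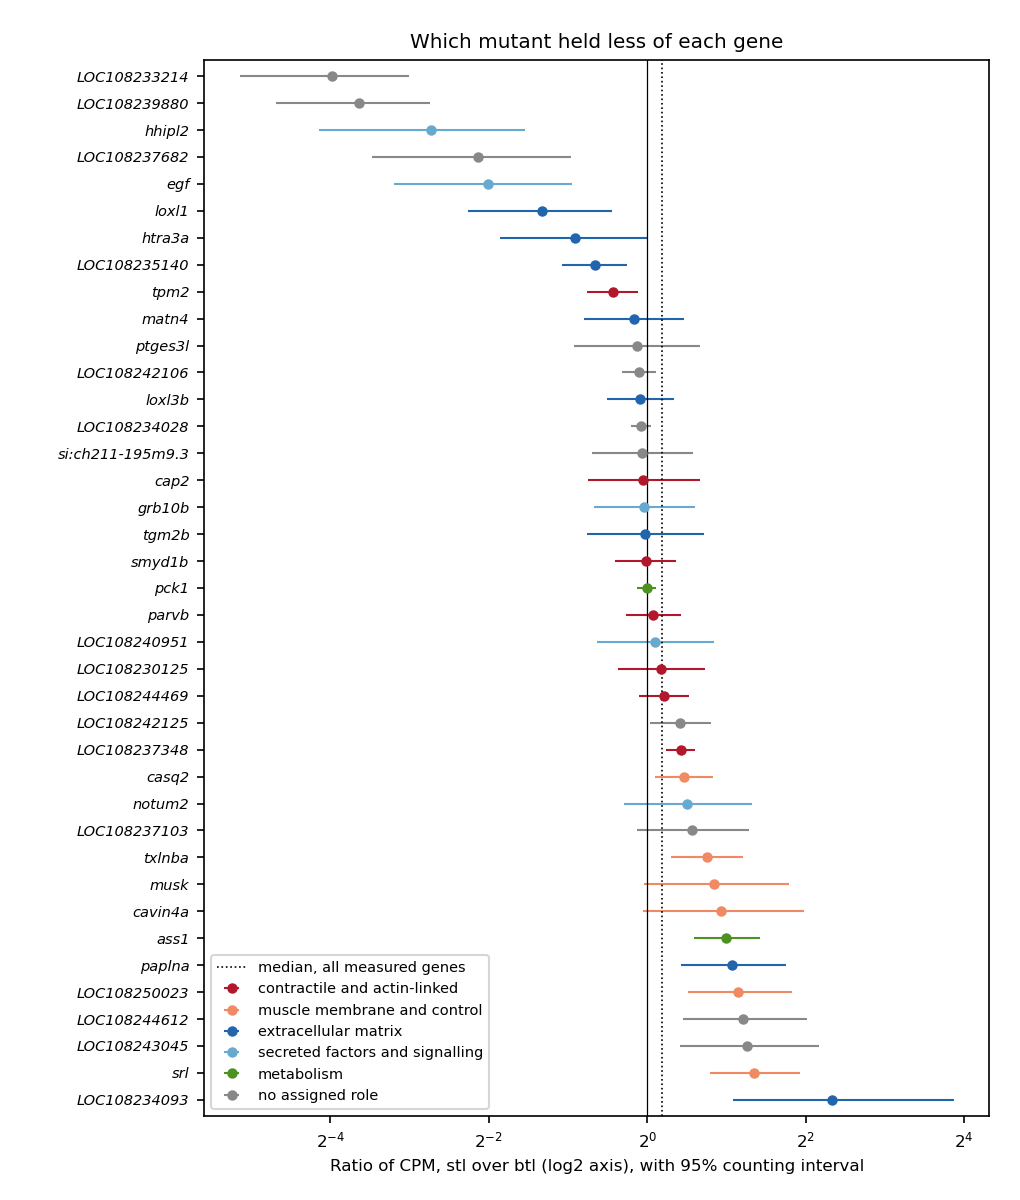
Ratio of CPM in *stl* over *btl* (log2 axis) for 39 of the genes, with the exact 95% interval from counting error, coloured by role; the dotted line is the median of all measured genes. The intervals of 9 of these genes lie left of 1, led by *LOC108233214*, and those of 11 lie right of 1, with *LOC108234093* and *srl* at the far end. No share of all measured genes is given for these counts.

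**Figure D4:**
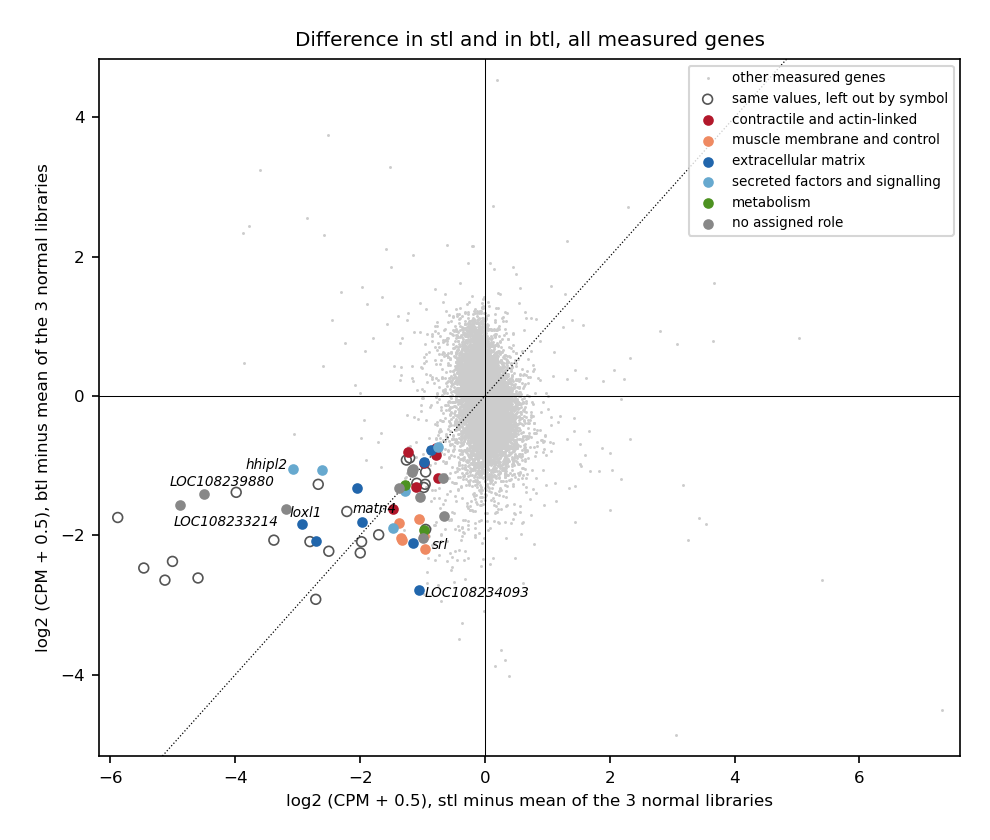
Log2 of CPM + 0.5 in *stl* (x axis) and *btl* (y axis) minus the mean of the 3 normal libraries, for all measured genes (grey), the 22 genes left out by symbol (open circles) and 39 of the 40 genes (coloured by role). These 39 genes range from -4.89 to -0.66 in *stl* and from -2.78 to -0.73 in *btl*, and the dotted line marks equal values.

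The normal libraries were not alike for these genes. Their values also entered the rule, so their order and spread in the set are a description, shaped by the rule. *stl*-sibling was the highest of the 3 in 26 of the 40 genes, beside 30.7% of all measured genes, *btl*-sibling in 10 (44.7%) and WT in 4 (24.6%). WT was the lowest in 30, beside 48% of all measured genes. The median log2 ratio of *stl*-sibling over WT was 0.47 for the 40 genes and 0.06 for all measured genes, and that of *btl*-sibling over WT was 0.21 and 0.10. By the factor of the rule, WT was lower than *stl*-sibling in 11 genes (3.98% of all measured genes) and lower than *btl*-sibling in 2 (4.08%). *btl*-sibling was lower than *stl*-sibling in 3 (2.54%) and *stl*-sibling lower than *btl*-sibling in 1 (3.38%). At least 1 pair of normal libraries differed by the same factor as the rule in 13 of the 40 genes, beside 12.3% of all measured genes. *ass1*, *loxl1*, *txlnba*, *LOC108237682* and *notum2* were among them, with *stl*-sibling at 1.75, 1.62, 1.62, 1.86 and 1.99 times WT. Hence the ratio to the sibling in *stl* was lower than the ratio to WT for these genes. Of the 13 genes of both muscle groups, *stl*-sibling was the highest of the normal libraries in 10. The part of line or stage differences between the pools was not tested.

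To place the set among tissues, 14 lists of marker genes were drawn up from what is known of expression in zebrafish. Of their genes, 8 were members. Among all measured genes, 0.764% were at most 0.67 times all 3 normal libraries in *stl*, 7.35% in *btl* and 0.478% in both. The excitation-contraction coupling list gave *casq2* and *srl* among 10 measured genes, and 2 of the 10 were at most 0.67 times all 3 normal libraries in *stl* and 6 in *btl*. The muscle chaperone, fusion and transcription list (27 measured) gave *musk* and *smyd1b*, with 3 genes lower in *stl* and 10 in *btl*. The list of sarcomere genes, nearly all under symbols that were not left out (27 measured), gave *tpm2*, with 4 lower in *stl* and 8 in *btl*. Both counts include *mybphb*, a gene left out by symbol, with 6.53 CPM in *stl* and 5.25 in *btl*. The notochord list (50 measured) gave *matn4*, *tgm2b* and *cavin4a*, with 8 lower in *stl* and 16 in *btl*. Of the last 3, *cavin4a* is better known from muscle. This list holds none of the genes left out by symbol, such as *col9a1b*, which the study used as a notochord marker. Its counts therefore leave out such genes, though they met the ratios in both mutants. Among the notochord genes lower in *stl*, *noto*, *tbxta*, *slc38a8b*, *plod2* and *matn3a* were not lower in *btl* by the rule. *noto* had 3.83 CPM in *stl* and 14.7 in *btl*, against 7.8, 7.5 and 7.9 in *stl*-sibling, *btl*-sibling and WT. *tbxta* had 6.96 and 62.6, against 22.7, 25.3 and 21.2, and *slc38a8b* 0.261 and 14.9, against 11.7, 9.4 and 10.7. *plod2* had 11.3 and 14.5, against 17.6, 21.2 and 20.2, and *matn3a* is given above.

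The other 10 lists held 0 members, namely muscle energy metabolism, tendon and sclerotome, fin fold, tail bud, neural, epidermis, heart, blood and endothelium, pigment and lens, and cell cycle genes. Of all measured genes 0.478% met the ratios in both mutants, so 0 members in lists of 6 to 29 measured genes is near that share. In *stl*, 2 of the genes of these lists were at most 0.67 times all 3 normal libraries, beside 0.764% of all measured genes. They were *and1* of the fin fold list and *tbxta* of the tail bud list. In *btl* the same condition was met by 7.35% of all measured genes. It was met there by 14 of 20 genes in the tendon, sclerotome and fibroblast list and 7 of 14 in the epidermis list. The counts were 4 of 10 in the pigment and lens list and 6 of 19 in the fin fold list. They were 0 of 29 in the cell cycle list and 0 of 6 in the heart list. The cell cycle genes nevertheless summed to 3562 CPM in *btl* and 5349 CPM in *stl*, against 4462 to 5331 CPM in the normal libraries. The summed level of the tendon, sclerotome and fibroblast genes was 1565 CPM in *stl* and 819.4 CPM in *btl*, against 1437 to 1674 CPM in the normal libraries. The summed level of the excitation-contraction coupling genes was 104.1 CPM in *stl* and 73.0 CPM in *btl*, against 136.6 to 185.9 CPM. Other lists were higher in 1 mutant. The pigment and lens genes summed to 421.0 CPM in *stl* and 118.7 CPM in *btl*, against 170.8 to 285.2 CPM in the normal libraries, and the heart genes to 184.4 CPM and 352.9 CPM, against 223.1 to 262.4 CPM. Their part in the levels of the 40 genes was not tested.

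**Figure D5:**
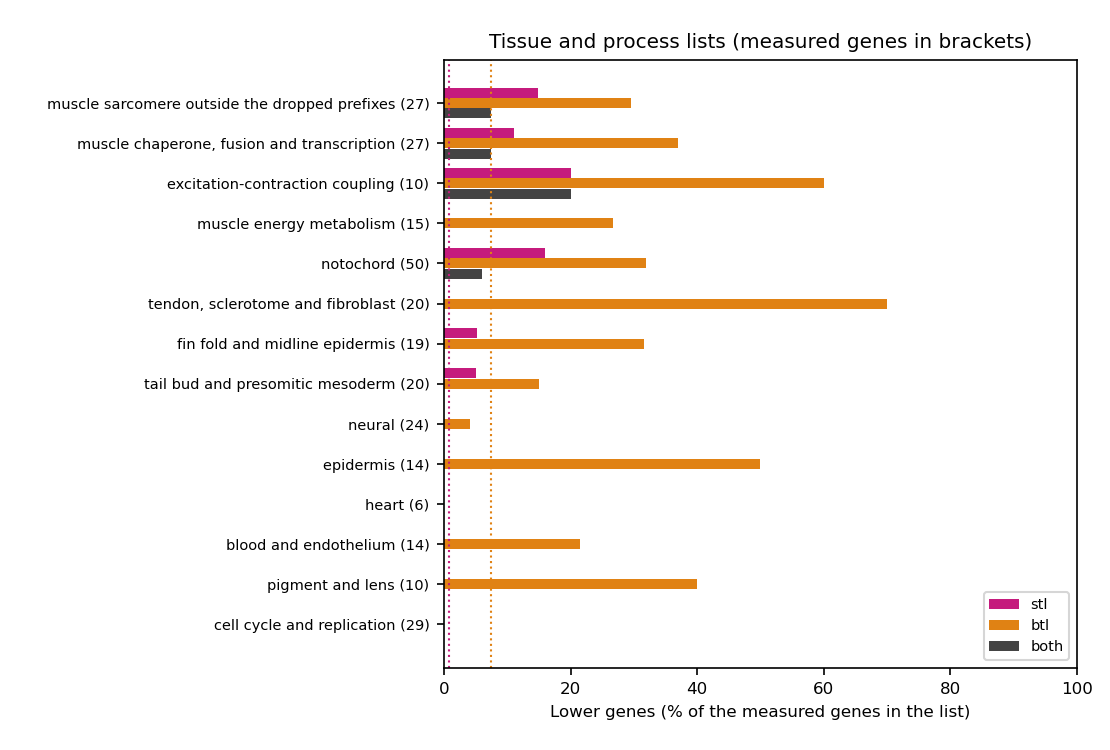
Share of the measured genes of each marker list (% on the x axis, number of measured genes in brackets) that were at most 0.67 times each normal library in *stl*, in *btl* and in both; dotted lines give the shares among all measured genes, 0.764% in *stl* and 7.35% in *btl*. Bars for both mutants appear only for the lists of sarcomere, muscle chaperone, excitation-contraction coupling and notochord genes. The sarcomere bar for both includes *mybphb*, a gene left out by symbol, whereas the notochord list holds none of the genes left out by symbol. Among all measured genes the share for both was 0.478%, so lists of this size can lack such bars at that share.

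The 40 genes were spread over 20 of the 24 linkage groups, with at most 4 on any of them. *LOC108239880* and *tgm2b* lie 63116 bases apart on linkage group 4 with 2 protein-coding genes between them, and *LOC108242106* and *LOC108242125* lie 133086 bases apart on linkage group 15 with 3 between them. *LOC108233214* lies 62306 bases from *epyc*, one of the genes left out by symbol, with 3 between. The longest coding sequence of the 40 genes had a median of 1500 nucleotides, close to the 1518 of all measured genes, with a range from 477 to 3615. A single coding sequence was annotated for 22 of the genes. For the other 18 the division of reads among overlapping forms does not touch the sums.

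Around the threshold of 0.67, the last genes inside were *grb10b*, *LOC108237348* and *tpm2*, with largest ratios of 0.663, 0.668 and 0.668. The first genes outside were *LOC108238239* (0.680, annotated as leukocyte cell-derived chemotaxin 1), *LOC108245696* (0.680, annotated as kelch-like protein 41b, a muscle protein) and *efemp2a* (0.687, a fibulin). At a threshold of 0.5 the set held 12 genes, *LOC108233214*, *LOC108239880*, *LOC108237682*, *loxl1*, *LOC108235140*, *htra3a*, *matn4*, *LOC108230125*, *musk*, *casq2*, *LOC108240951* and *si:ch211-195m9.3*. Leaving out WT, *stl*-sibling or *btl*-sibling from the rule gave 90, 65 and 42 genes. Each of these sets must contain the 40, since leaving out a library only removes conditions.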

How the data were processed

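RNA-seq was read from 5 libraries, 1 per group. Per the methods and labels, the authors trimmed paired end reads and ran Salmon 1.5.0 on the annotated coding sequences of assembly ASM164957v2, and deposited estimated counts and TPM for 37181 coding sequences. The joined table of estimated counts the authors deposited equalled the single libraries (largest difference 0). The deposited NOISeq tables hold library values, fold changes and probabilities for each comparison, of which only product names were read, and an RPKM table was not used.

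Coding sequences were assigned to genes through protein accessions in the RefSeq table of that assembly (37146 assigned, 35 not). Estimated counts were summed per gene and divided by the library total. TMM and size factors came from edgeR 4.0.16 and DESeq2 1.42.0 under R 4.3.3, all else from Python 3.11.15, pandas 2.3.3 and scipy 1.17.1. Reads were rounded for intervals. The alternatives changed the scaling, pseudocount, minimum, threshold, libraries used and summing per gene. The rule was run on simulated counts that held counting error alone. They had no spread between pools, so they give no rate of false calls for these data. Since each group has 1 library, no gene was tested. Named are the 12 lowest genes in each mutant, the 12 most abundant, the 5 at each end of the *stl* to *btl* ratio, list genes, threshold genes, neighbours and families, and the remaining genes of the set were added. The genes and lists were chosen with earlier results of these data known, and groups and relatives after their values were seen. Sequences and promoter motifs were not analysed here. The values of 1 gene of the set are not reported here, though it is counted in the totals.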

Additional observations from a re-analysis of the deposited data

How the results depend on the processing

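With 1 library per group, nothing here separates a mutation from its pool, and the lowest count of the set is 6 reads. The number of genes in the set was 24 with Salmon's TPM (the minimum also applied to TPM; 17 of the 40 among them), 21 with a minimum mean of 10 CPM, 79 with no minimum, 12 at a threshold of 0.5, 105 at 0.8, 90 without WT, 65 without *stl*-sibling and 118 with single coding sequences (32 of the 40 genes among them). TMM factors and DESeq2 size factors each gave 39 genes, 36 of them among the 40, and removing the trend over coding length in 20 bins gave 42, of which 31 were among the 40. The genes lost with both kinds of factors were *tpm2*, *loxl3b*, *cap2* and *grb10b*. A minimum mean of 2 CPM gave 57 genes, and a pseudocount of 2 gave 30, all among the 40. The genes lost with the pseudocount of 2 were *tpm2*, *cap2*, *grb10b*, *parvb*, *tgm2b*, *LOC108234093*, *LOC108237103*, *LOC108237348*, *LOC108243045* and *LOC108250023*. Under all 4 scalings 16 genes kept their place. The genes lower in *btl* than in *stl* numbered 19 of the 40, and 30 of the same 40 with TPM. The cause of this change with TPM was not tested. The minimums changed the size of the set, so their counts are out of other totals. Lower in *btl* were 11 of the 21 genes with the minimum of 10 CPM and 35 of the 79 with no minimum. Normal libraries differed by the factor of the rule in 8 of the 21 and 25 of the 79, beside 13 of the 40. *stl*-sibling was highest in 16 of the 21 and 47 of the 79, beside 26 of the 40. Listed genes lower in both mutants numbered 9, namely the 8 of the set and *mybphb*, which was left out by symbol. Under other scalings they numbered 8 to 11. The genes were chosen as low in both mutants, so the sign of their single-gene differences to the normal libraries was all but fixed in advance. It was kept in all 720 cases, 15 of which moved by more than counting error. Settings that changed only the minimum leave these differences as they are. Each mutant pool has a sibling pool of its own line, but with 1 library per group no paired analysis was run. A fit with line as a block, which would treat the 2 mutants as replicates of 1 condition, was not run.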

Other observations

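In the opposite direction the set had nearly no counterpart with library totals, the only scaling for which this count is given. With that scaling the median log2 difference of all measured genes in *btl* was -0.17. Only 2 of the 12962 measured genes (0.0154%) were at least 1.49 times each normal library in both mutants. *LOC119617013*, annotated as zinc finger protein 271-like, had 13.5 CPM in *stl* and 15.3 in *btl*, against 3.81 in *stl*-sibling, 7.78 in *btl*-sibling and 4.75 in WT. *LOC108231124* had 13.4 CPM in *stl* and 19.2 in *btl*, against 7.17, 3.85 and 8.29. Neither has a role assigned here, and both rest on 1 library per mutant.

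For some genes of the set, the division of reads among annotated forms is given as examples. For *grb10b* the 1857-nucleotide coding sequence had 0 CPM in *stl* and in *btl*, against 6.02, 5.94 and 5.35 CPM in *stl*-sibling, *btl*-sibling and WT, whereas the 1854-nucleotide one had 4.27 and 2.86 CPM, against 1.32, 2.66 and 0. For *loxl3b* the 2271-nucleotide form had 6.20 CPM in *stl* and 0 in *btl*, against 14.9, 9.63 and 13.1, and the 2391-nucleotide form 2.86 and 9.62, against 1.51, 6.90 and 4.74, so that *btl* alone held no reads of the shorter form. Divisions of all reads to 1 form also differed between normal libraries. For *notum2* the 1569-nucleotide form had 6.96 CPM in *btl*-sibling and 0 elsewhere. Its 1572-nucleotide form had 17.5 in *stl*-sibling, 0 in *btl*-sibling and 8.80 in WT. For *musk* the 2886-nucleotide form had 3.13 CPM in *stl* and 0 elsewhere. Salmon's divisions of reads between overlapping forms have no interval here, so a form at 0 in the mutants cannot be read as lost.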
